A study of Mus musculus with 32 samples.

Results

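Interferon response genes are transcribed when a cell senses an interferon, and 49 of them were followed here in 4 lymphoid tissues of mice labelled as overexpressing CD30 ligand in T cells, and of their littermates. The members were listed by gene symbol, and no measured value decides membership, but earlier results of these data were known when the list was chosen. Each gene was read from the Affymetrix probe set annotated to that symbol alone, and where several existed, from the one with the highest mean over the 32 arrays. By this rule 45 of the 49 genes had a value, out of 18193 genes on the array. More than 1 such probe set existed for 17 of the 45, among them Parp14, Rtp4, Ifi35 and Rsad2. Values below are those of the 1 read, unless others are named. Isg15 and Trex1 were found only on probe sets annotated to several symbols, and Oas1g and Ifi44 were matched to no probe set, so these 4 were not analysed here.

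The transgenic mice (CD2-CD30L) expressed CD30L, a TNF family ligand, from a construct directed to T cells, and the controls, called wild type below, were their littermates without the transgene. All mice were 12-week-old C57BL/6 females. Peripheral lymph node, mesenteric lymph node, spleen and thymus came from each of 4 transgenic and 4 wild type mice, so each tissue has 8 arrays and each mouse gave all 4 tissues. The number of founder lines behind the transgenic mice, and whether mouse numbers mark litters or days, are not stated in the sources used here. Each array measured total RNA of a whole organ, so fewer cells of a type and less RNA per cell cannot be told apart.

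Interferons alpha and beta bind a common receptor that signals through the kinases JAK1 and TYK2. A complex that holds STAT2 and IRF9 then binds the interferon-stimulated response element (ISRE) in promoters, while interferon gamma acts mainly through the gamma-activated site (GAS). The induced proteins sense viral nucleic acid, degrade or block viral RNA, tag proteins with ISG15, guard membranes or feed back on the pathway, and many of them are also made at a low level in uninfected lymphoid organs.

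The promoter windows of 5 members are shown because 1 letter pattern was common in the windows of the members. Each window runs from 250 bases before to 50 bases after the annotated start, 5′ to 3′ on the strand of the gene, taken from RefSeq with the GRCm38.p6 build. Capitals mark ISRE letters (GAAA, any 2 bases and GAAA again, or TTTC, any 2 bases and TTTC on the other strand) in the first 4 and GAS letters (TTCNNNGAA, the same on either strand) in Irf1. Ifit1 lies at chr19:34640639-34640938 on the plus strand, Ifit3 at chr19:34583279-34583578 on the plus strand, Rsad2 at chr12:26456403-26456702 on the minus strand, Gbp2 at chr3:142620413-142620712 on the plus strand and Irf1 at chr11:53769764-53770063 on the plus strand.
Ifit1: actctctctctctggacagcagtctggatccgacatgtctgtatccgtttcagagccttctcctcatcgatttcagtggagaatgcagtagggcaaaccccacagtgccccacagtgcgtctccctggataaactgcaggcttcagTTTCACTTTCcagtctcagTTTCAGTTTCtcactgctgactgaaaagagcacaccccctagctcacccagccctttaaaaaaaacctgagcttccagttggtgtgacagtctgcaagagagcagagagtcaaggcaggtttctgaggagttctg
Ifit3: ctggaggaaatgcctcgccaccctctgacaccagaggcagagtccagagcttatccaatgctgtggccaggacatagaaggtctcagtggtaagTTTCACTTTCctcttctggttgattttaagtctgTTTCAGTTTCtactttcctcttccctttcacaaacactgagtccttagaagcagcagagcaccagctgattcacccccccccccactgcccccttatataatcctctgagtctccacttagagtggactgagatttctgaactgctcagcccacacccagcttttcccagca
Rsad2: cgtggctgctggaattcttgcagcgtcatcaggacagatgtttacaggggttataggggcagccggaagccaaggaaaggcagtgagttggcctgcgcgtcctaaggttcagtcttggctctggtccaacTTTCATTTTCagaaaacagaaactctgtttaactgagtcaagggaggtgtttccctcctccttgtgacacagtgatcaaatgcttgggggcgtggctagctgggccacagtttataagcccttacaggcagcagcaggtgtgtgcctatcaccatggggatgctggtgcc
Gbp2: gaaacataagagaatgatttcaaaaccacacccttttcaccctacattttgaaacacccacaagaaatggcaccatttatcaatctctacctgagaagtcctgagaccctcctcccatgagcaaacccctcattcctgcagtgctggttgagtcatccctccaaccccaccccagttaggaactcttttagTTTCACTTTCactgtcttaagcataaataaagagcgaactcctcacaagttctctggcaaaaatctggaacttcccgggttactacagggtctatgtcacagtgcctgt
Irf1: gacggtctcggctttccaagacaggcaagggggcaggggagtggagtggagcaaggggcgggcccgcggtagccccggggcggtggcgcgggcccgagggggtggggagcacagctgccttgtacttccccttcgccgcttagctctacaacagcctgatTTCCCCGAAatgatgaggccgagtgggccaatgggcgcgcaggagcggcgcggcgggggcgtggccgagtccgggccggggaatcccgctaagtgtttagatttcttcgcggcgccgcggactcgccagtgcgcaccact

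The ISRE letters began 104 and 85 bases before the start of Ifit1, 156 and 122 bases before that of Ifit3, 120 bases before that of Rsad2 and 59 bases before that of Gbp2. Of the 37 members with a window in the RefSeq table, 19 held ISRE letters in at least 1 window, against 3.99% of 27025 genes. GAS letters were in the windows of 10 of the 37 members, against 9.55% of genes, and in Irf1 they began 90 bases before the start. The windows of Cmpk2, Irf7, Isg20 and Oasl2 held no ISRE letters. A match says only that the letters are present.

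The thymus and spleen labels were borne out by markers, while the thymocyte and erythroid lists did not separate peripheral from mesenteric node. The mean log2 level of 9 thymocyte genes was 11.17 to 11.35 in thymus and at most 7.47 elsewhere, and that of 7 erythroid genes was 8.98 to 10.87 in spleen and at most 5.64 elsewhere. The transgene could not be checked from its own gene: the 1 probe set of Tnfsf8, which encodes CD30L, differed between genotypes by -0.10 to 0.07 on the log2 scale over the 4 tissues, and no source used here states if the construct holds the sequence it detects. Genotypes are therefore those of the labels. Across all 27022 probe sets tested per tissue, limma with Benjamini-Hochberg adjustment called 10 at an adjusted p under 0.05 in peripheral node, 0 in mesenteric node, 3 in the spleen and 1 in the thymus. At an unadjusted p under 0.05 the mesenteric fit held 4.72% of all probe sets. Levels below are log2(intensity + 16) after quantile normalization of the 8 arrays of a tissue.

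No interferon response gene differed between transgenic and wild type mice past the threshold in any of the 4 tissues, and the differences below are given as values, with their test between tissues further on. In thymus 40 of 42 members had a higher mean in transgenic mice, with a median log2 difference of 0.19. In spleen 33 of 44 had a lower mean, with a median of -0.20. In peripheral lymph node 35 of 44 were lower with a median of -0.15. However, without normalization the median was 0.03, while the median of all probe sets was 0.18. Under each of 3 scalings 9 members lay above the median of all probe sets. In mesenteric lymph node 25 of 44 were lower with a median of -0.04. This median turned to 0.09 with no normalization and with arrays set to a common median, where all probe sets had 0.08 and 0.09. The medians of all probe sets after quantile normalization lay between -0.01 and 0.01 in the 4 tissues.

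**Figure D1:**
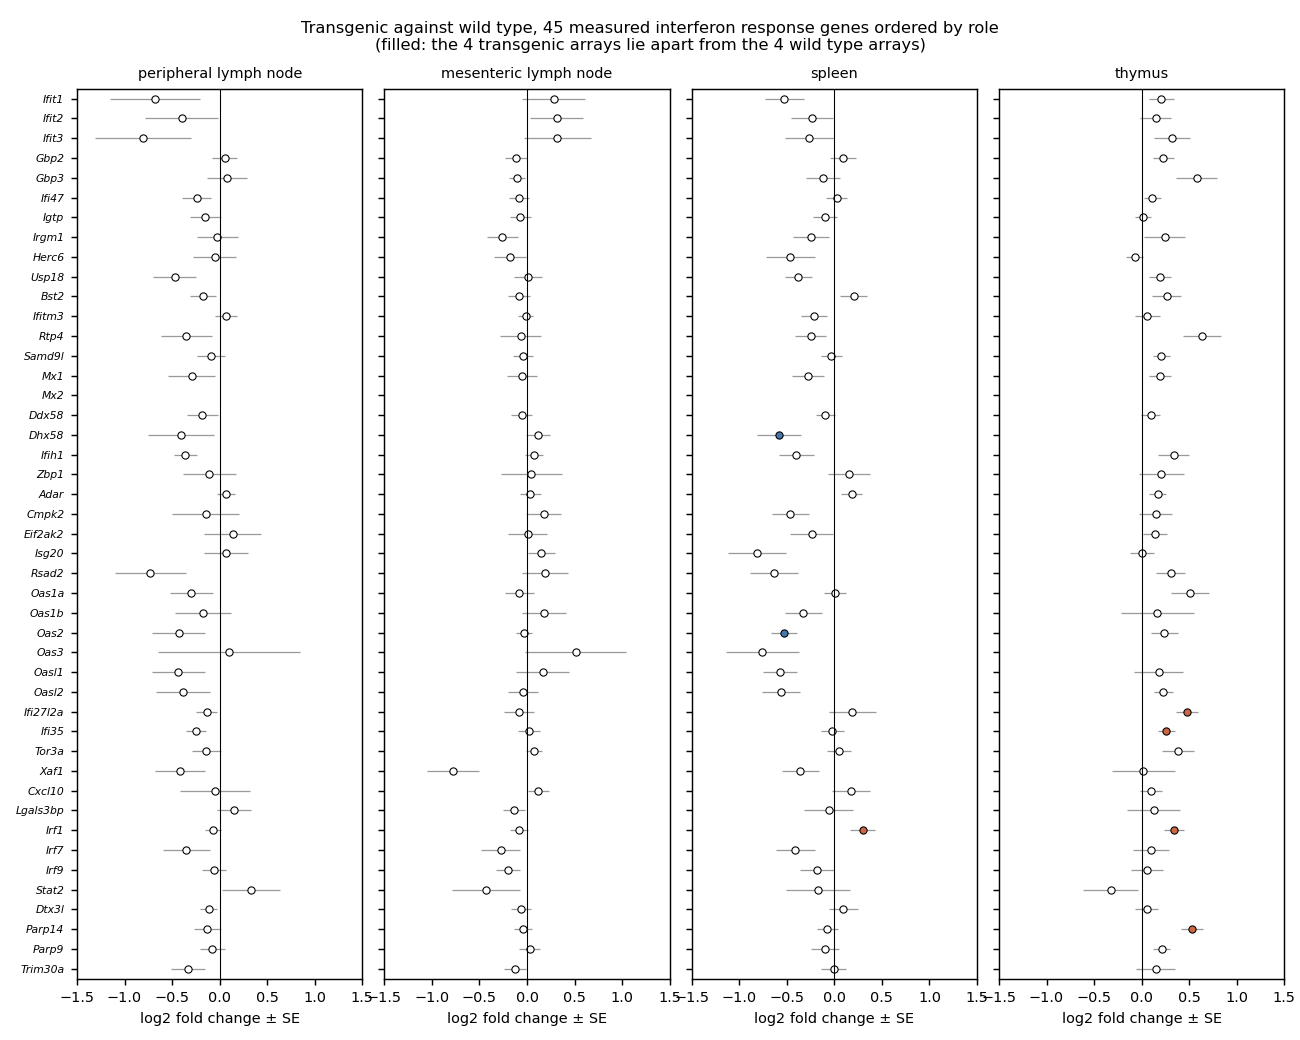
The log2 fold change (transgenic minus wild type, with its SE) of each of the 45 measured members in 4 tissues, ordered by role; Mx2 was kept in no tissue, and Dhx58 and Oas3 not in thymus. In thymus 40 of 42 points lie right of 0 and in spleen 33 of 44 lie left of it; filled points are genes with no overlap between the genotypes.

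Thymus held the most members whose genotypes did not overlap. The 4 transgenic arrays lay above the 4 wild type arrays for 4 of 42 members, where 2.54% of all probe sets did so, and below them for none, where 2.06% did so. Limma called 0 members, against 0.0037% of probe sets called higher, with a smallest adjusted p of 0.44. At an unadjusted p under 0.05, 7 members were higher (3.98% of all probe sets) and none lower (3.29%). The mean of the 42 members was 8.38 ± 0.13 (SD, n = 4) in wild type and 8.58 ± 0.15 in transgenic mice. These means overlapped, since transgenic mouse 2 was at 8.39 and wild type mice 3 and 4 at 8.46 and 8.52. Transgenic mouse 4 held the highest of the 8 values for 23 of the 42 members, so the members do not count as separate signals.

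Parp14, an ADP-ribosyltransferase, had levels of 8.23, 8.23, 8.09 and 7.98 in the thymus of wild type mice 1 to 4 and 8.84, 8.64, 8.43 and 8.76 in transgenic mice 1 to 4. All 4 transgenic values exceeded all 4 wild type values. The difference was 0.53 (SE 0.11, n = 4 mice per genotype), with a limma adjusted p of 0.44 that became 0.042 in a single fit over the 32 arrays with the mouse as a random block, the one alternative in which any member was called.

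Ifi27l2a, a small interferon-induced membrane protein, measured 9.75, 9.68, 9.95 and 9.95 in wild type thymus and 10.43, 10.21, 10.14 and 10.46 in transgenic thymus, a difference of 0.48 (SE 0.11). Irf1, a transcription factor induced strongly by interferon gamma, measured 10.02, 10.02, 10.22 and 10.33 in wild type and 10.60, 10.36, 10.44 and 10.53 in transgenic thymus, a difference of 0.34 (SE 0.11). Ifi35 was at 9.98 to 10.17 in wild type thymus and at 10.24 to 10.49 in transgenic thymus, a difference of 0.26 (SE 0.09). For Irf1 the gap between the nearest mice of the genotypes was small, since wild type mouse 4 and transgenic mouse 2 were nearly level.

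The largest thymic difference was that of Rtp4, a chaperone for membrane receptors that is also antiviral. It measured 8.17, 8.26, 8.65 and 8.75 in wild type and 9.24, 8.58, 9.25 and 9.29 in transgenic mice, a difference of 0.64 (SE 0.20, limma adjusted p 0.64). Transgenic mouse 2 lay among the wild type mice and the other 3 lay above them. Gbp3, a guanylate-binding GTPase induced by interferon gamma, differed by 0.58 (SE 0.21) and Oas1a, a synthetase of the RNA-degradation signal 2-5A, by 0.51 (SE 0.20), both with overlapping genotypes.

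By role in thymus, all 5 interferon gamma-induced GTPases had higher transgenic means (median 0.23), as did all 5 kept OAS genes (median 0.23), all 4 membrane and entry effectors (median 0.23), all 3 IFIT genes (median 0.21), all 3 kept sensors (median 0.21) and all 4 ubiquitin and ADP-ribose enzymes (median 0.18). The lower pair was Stat2, at -0.33 (SE 0.29), and Herc6, the ISG15 ligase, at -0.07 (SE 0.09). A second probe set of Stat2 gave 0.09, and without normalization Herc6 was the member that turned positive. Dhx58 and Oas3 fell under the intensity filter in thymus.

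Beside these values stand marker lists that moved with genotype in thymus. The mean level of 9 B cell genes was 6.10 to 6.45 in wild type and 6.53 to 7.11 in transgenic thymus, and that of 14 macrophage genes was 7.94 to 8.05 and 8.09 to 8.21. The 9 thymocyte genes were at 11.28 to 11.35 and 11.17 to 11.30, and the 9 thymic epithelial genes at 9.18 to 9.32 and 9.31 to 9.51. The 7 adipocyte genes averaged 7.89 to 8.69 and 8.50 to 9.24. The thymocyte, thymic epithelial and adipocyte lists overlapped between the genotypes, and the B cell and macrophage lists did not. The ratio of 3′ to 5′ Actb probe sets, a sign of RNA quality, was 2.25 and 2.23 in transgenic mice 1 and 2 and at most 1.78 in wild type mice. Without those 2 transgenic arrays the median member difference was 0.30, but this sets transgenic mice 3 and 4 against all 4 wild type mice. Taken by mouse number, the member mean was higher in transgenic mice by 0.22 within mice 1 and 2 and by 0.19 within mice 3 and 4. The part of the cell markers in the difference was not tested.

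In spleen the OAS family and the nucleotide and RNA effectors had the most negative median differences. Limma called 0 members (0 probe sets of all were called lower and 0.0111% higher), with a smallest adjusted p of 0.53. At an unadjusted p under 0.05, 9 members were lower (4.34% of all probe sets) and 1 higher (4.21%). The genotypes lay apart for 2 members in the lower direction, Oas2 and Dhx58 (2.09% of all probe sets), and for 1 in the higher direction, Irf1 (2.79%).

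Oas2 measured 7.47, 7.59, 8.01 and 7.73 in wild type and 7.34, 7.13, 7.13 and 7.07 in transgenic spleen, a difference of -0.53 (SE 0.14, limma adjusted p 0.53). Dhx58, the RNA sensor LGP2, measured 7.63, 7.53, 7.59 and 7.55 in wild type and 7.10, 6.25, 7.20 and 7.42 in transgenic spleen, a difference of -0.58 (SE 0.23). The 4 wild type values of Dhx58 nearly coincided, while transgenic mouse 2 stood well below the other 3. A second probe set of Dhx58 gave 0.33 in the same spleens, so the 2 kept probe sets of this gene disagreed in sign.

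Isg20, an exonuclease that degrades viral RNA, had levels of 9.83, 10.59, 10.91 and 11.42 in wild type and 9.80, 9.94, 10.18 and 9.59 in transgenic spleen, a difference of -0.81 (SE 0.31, limma adjusted p 0.56). Wild type mouse 1 sat among the transgenic mice and the other 3 lay above all of them. Rsad2, the antiviral enzyme viperin, showed the same layout with 11.69, 12.53, 12.22 and 12.66 in wild type and 11.71, 11.85, 11.90 and 11.10 in transgenic spleen, a difference of -0.64 (SE 0.25). Its neighbour in function, Cmpk2, which supplies the nucleotide that viperin converts, differed by -0.46 (SE 0.20) and Oas3 by -0.76 (SE 0.38).

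Among the 9 lower spleen members under an unadjusted p of 0.05 were Oasl1 (-0.57, SE 0.18) and Oasl2 (-0.56, SE 0.20). Ifit1 (-0.53, SE 0.21) and Usp18, the protease that removes ISG15 (-0.38, SE 0.14), were also among these 9. By role, 5 of 6 OAS genes were lower with a median of -0.55, and 4 of 5 nucleotide and RNA effectors with a median of -0.46. The interferon gamma-induced GTPases were near level with a median of -0.10, as were the ubiquitin and ADP-ribose enzymes with a median of -0.04. Irf1 went the other way, with 10.97, 10.70, 10.75 and 10.38 in wild type and 10.98, 10.98, 10.99 and 11.04 in transgenic spleen, a difference of 0.30 (SE 0.13).

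The mean of 7 erythroid genes was 9.96 to 10.87 in wild type and 8.98 to 10.22 in transgenic spleen, and that of 9 T cell genes was 8.70 to 8.96 and 9.06 to 9.45. The Actb 3′ to 5′ ratio divided the spleens by mouse number and not by genotype, with 2.83 to 3.58 in mice 1 and 2 and 1.65 to 1.85 in mice 3 and 4. The member mean was lower in transgenic mice by 0.19 within mice 1 and 2 and by 0.22 within mice 3 and 4. The part of the erythroid and T cell markers was not tested.

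**Figure D2:**
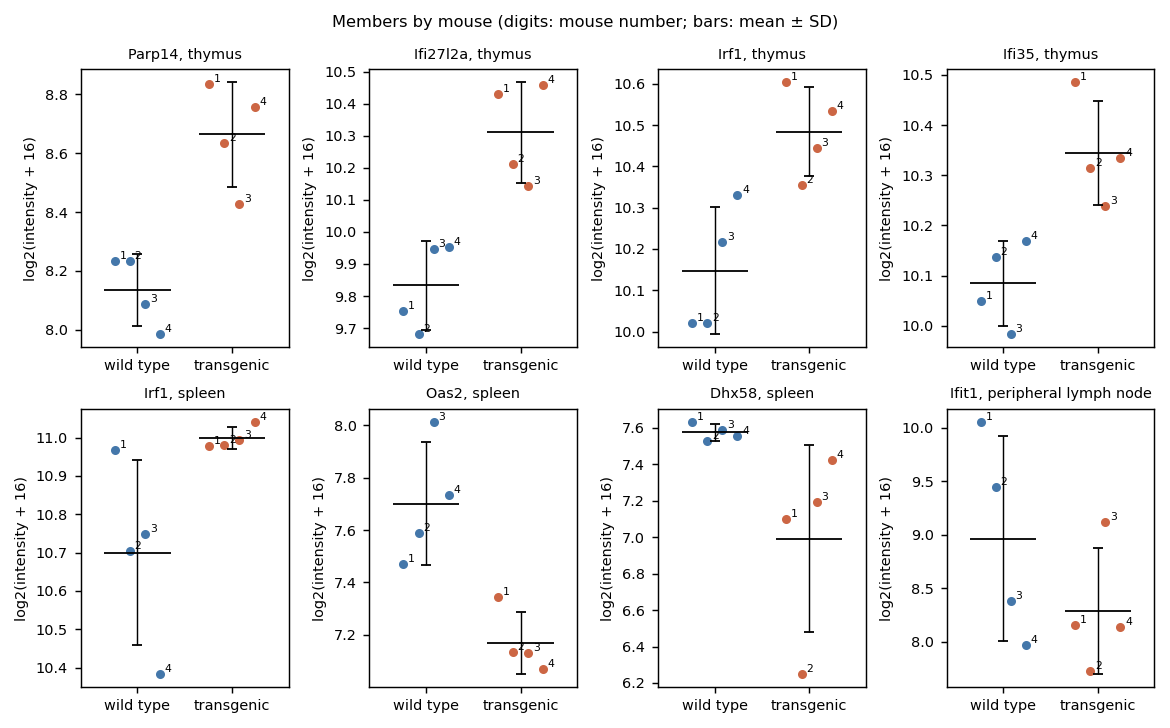
Level, as log2(intensity + 16), of 7 members in each mouse of the named tissue, with Irf1 in both thymus and spleen (the digit is the mouse number; the line and bar give the mean and SD of 4 mice). In thymus Parp14, Ifi27l2a, Irf1 and Ifi35 of all 4 transgenic mice lie above the 4 wild type mice, and in peripheral lymph node Ifit1 of wild type mouse 1 reaches 10.06 while wild type mouse 4 is at 7.97.

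In peripheral lymph node the spread between mice of 1 genotype was wide, with a member mean of 9.37 ± 0.39 (SD, n = 4) in wild type and 9.18 ± 0.20 in transgenic mice. Limma called 0 members (0.0333% of probe sets were called higher and 0.0037% lower), with a smallest adjusted p of 0.46 for Ifih1. No member had non-overlapping genotypes, against 2.43% of probe sets in the higher and 2.92% in the lower direction. At an unadjusted p under 0.05, 2 members were lower, Ifih1 (-0.36, SE 0.12), which encodes the RNA sensor MDA5, and Ifi35 (-0.24, SE 0.10), and none higher, against 4.15% and 4.21% of all probe sets.

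Ifit3, whose protein binds other IFIT proteins on foreign RNA, measured 10.24, 9.81, 9.21 and 7.94 in wild type and 8.26, 7.80, 9.39 and 8.52 in transgenic nodes, a difference of -0.81 (SE 0.51). Ifit1, which binds RNA that lacks the host cap mark, measured 10.06, 9.45, 8.38 and 7.97 against 8.16, 7.73, 9.12 and 8.13, a difference of -0.68 (SE 0.47). Rsad2 measured 9.88, 8.92, 8.63 and 8.13 against 8.16, 7.60, 8.80 and 8.09, a difference of -0.73 (SE 0.38). For each of these mouse 1 was at the top and mouse 4 at the bottom of the wild type range, and the transgenic values lay inside or below it. All 3 IFIT genes had lower transgenic means (median -0.68), as did all 4 sensors (median -0.27) and 5 of 6 OAS genes (median -0.34), and these medians stayed negative without normalization (-0.48, -0.09 and -0.15).

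Wild type mouse 1 held the highest of the 8 peripheral node values for 33 of the 44 members, among them Ifi47, Irf1 and Usp18. The mean of the 44 members was 9.80, 9.57, 9.19 and 8.93 in wild type mice 1 to 4 and 9.21, 8.997, 9.45 and 9.06 in transgenic mice 1 to 4. Taken by mouse number, the transgenic minus wild type difference of that mean was -0.58 in mice 1 and 2 and 0.20 in mice 3 and 4, so its sign turned. By gene, 1 of 44 members was higher in transgenic mice 1 and 2, and 36 of 44 in transgenic mice 3 and 4. This division by number was seen in earlier results of these data, and no label names it.

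The mean level of 16 skeletal muscle genes spanned 5.37 to 9.47 in wild type peripheral nodes and 5.34 to 6.98 in transgenic ones, and wild type mice 1 and 3 and transgenic mouse 1 held the most. Without those 3 arrays Cxcl10, an interferon-induced chemokine, went from -0.05 to 0.48. Without wild type mouse 1 the median member difference was -0.07, and without wild type mouse 4 it was -0.29, against -0.15 with all 8 mice. Other lists also moved: 9 T cell genes averaged 10.33 to 10.47 in wild type and 10.09 to 10.30 in transgenic nodes, which did not overlap, and 7 adipocyte genes 10.29 to 11.07 and 9.98 to 10.50. The part of the muscle, T cell and adipocyte transcripts was not tested.

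**Figure D3:**
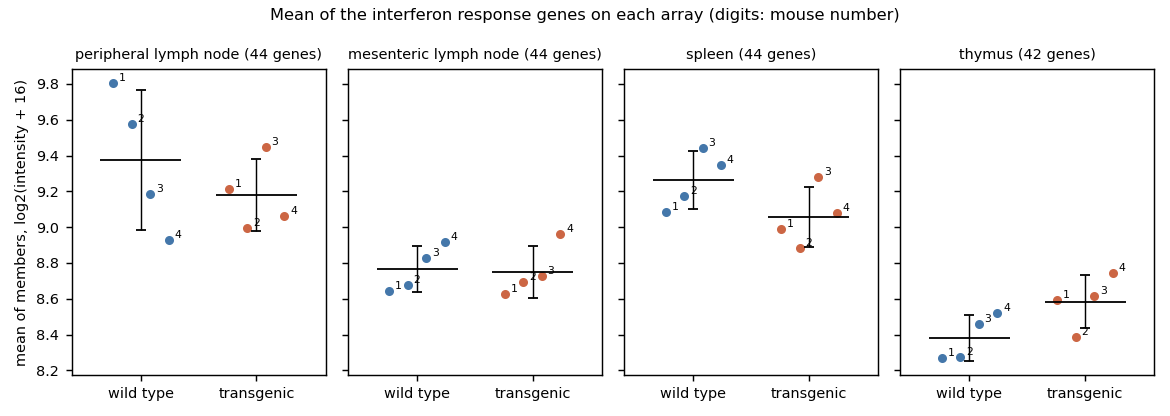
The mean log2(intensity + 16) of the members kept in a tissue on each array, by tissue and genotype (the digit is the mouse number; the line and bar give the mean and SD of 4 mice); each panel was normalized on its own, so heights are to be read within a panel. Wild type mice in peripheral lymph node spread from 8.93 to 9.80, and in the other 3 tissues mice 3 and 4 average higher than mice 1 and 2 in both genotypes.

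Mesenteric lymph node had the smallest differences. Limma called 0 members, where 0 probe sets of all were called in either direction, and the smallest adjusted p was 0.95. No member had non-overlapping genotypes, against 2.71% of probe sets in the higher and 1.22% in the lower direction. At an unadjusted p under 0.05 1 member was lower (1.5% of all probe sets) and none higher (3.22%). It was Xaf1, a proapoptotic interferon target, with 7.94, 8.10, 8.52 and 8.75 in wild type and 6.88, 8.02, 7.52 and 7.77 in transgenic nodes (-0.78, SE 0.27). Its other probe set gave 0.05. The member mean was 8.77 ± 0.13 (SD, n = 4) in wild type and 8.75 ± 0.15 in transgenic nodes. The 3 IFIT genes had higher transgenic means there, between 0.28 and 0.32, although without transgenic mouse 4 the Ifit1 difference was 0.003. All 5 interferon gamma-induced GTPases had lower means, between -0.26 and -0.07, and 4 of those 5 turned positive with no normalization or a common median.

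Pancreas transcripts were carried along in some mesenteric samples. The mean of 11 exocrine pancreas genes spanned 4.87 to 13.27 in wild type mesenteric nodes and 4.95 to 12.73 in transgenic ones. Without the 3 arrays that held the most, Stat2 went from -0.43 to 0.03 and Igtp from -0.07 to 0.04. Lists of 8 conventional dendritic cell genes (8.08 to 8.27 in wild type, 7.91 to 8.06 in transgenic), 14 macrophage genes (9.91 to 10.12 and 9.83 to 9.85) and 7 natural killer cell genes (7.19 to 7.36 and 6.93 to 7.18) did not overlap between the genotypes there. The part of all these transcripts was not tested.

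The correlation of a member with the mean of the other members over the 8 arrays of a tissue had a median of 0.85 in peripheral lymph node, 0.71 in spleen, 0.70 in thymus and 0.53 in mesenteric lymph node. In peripheral node 27 of 44 members exceeded 0.8 and 1 was below 0, while 1.89% of the other probe sets exceeded 0.8. In mesenteric node these figures were 10, 3 and 1.75%, in spleen 13, 6 and 8.03%, and in thymus 15 and 7 of 42 and 2.93%. Oas1b was at -0.84 in spleen. The median over other probe sets lay between -0.03 and 0.06. These are descriptions over 8 arrays that share their normalization. The mean of each genotype was taken out of every value first, so differences between the genotypes are not part of them. The median SD of a member within the genotypes, on the same values, was 0.36 in peripheral node, against 0.21 for all probe sets. In mesenteric node it was 0.19, against 0.21.

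Some well known members are given by tissue, as transgenic minus wild type differences. No test of whether that difference itself differed between tissues passed for any member. Irf7 had differences of -0.35, -0.28, -0.41 and 0.10 in peripheral node, mesenteric node, spleen and thymus, and Mx1 of -0.29, -0.05, -0.28 and 0.19. Gbp2 had 0.05, -0.11, 0.09 and 0.23, and Bst2 had -0.18, -0.08, 0.20 and 0.26. Ifitm3, which blocks the entry of viruses, and Igtp stayed between -0.21 and 0.06 in each tissue. The standard errors of these values were 0.08 to 0.25, and no adjusted p was under 0.05. Several of these small values depended on the scaling and had opposite signs with no normalization: in mesenteric node Mx1, Gbp2, Igtp, Bst2 and Ifitm3, in peripheral node Igtp, and in spleen Gbp2 and Bst2.

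The test of whether the transgenic difference itself differed between tissues called 0 members for all 6 pairs of tissues, using each mouse's own tissue difference in limma. The smallest adjusted p for a member was 0.32, for Ifi27l2a between thymus and peripheral node (0.62, SE 0.13). Between thymus and spleen 3 probe sets of all were called (0.0111%) and no member. There 43.2% of members had an unadjusted p under 0.05 against 8.46% of all probe sets, and the median difference was 0.39 against -0.001. The members with the smallest p were Rsad2 at 0.94 (SE 0.20), Rtp4 at 0.88 (SE 0.19) and Ifih1 at 0.75 (SE 0.16), each with a limma adjusted p of 0.50. In the other 5 pairs 0% of all probe sets were called. At an unadjusted p under 0.05, thymus against peripheral node held 22.7% of members (9.71% of all probe sets). Thymus against mesenteric node held 22.7% (5%) and spleen against mesenteric node 15.9% (5.96%). Spleen against peripheral node held 4.55% (7.6%) and mesenteric against peripheral node 4.55% (5.4%).

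Most members were lower in thymus than in the other tissues. In wild type mice, with all 32 arrays on 1 scale and each mouse compared with itself, 32 of 44 members were lower in thymus than in peripheral lymph node and 1 was higher (adjusted p under 0.05), against 29.1% and 29% of all probe sets. Against mesenteric node 29 were lower and 4 higher in thymus (26.1% and 28.7% of all), and against spleen 33 were lower and 1 higher (23.6% and 26.6%). Thymus had the lowest wild type mean for 35 of 44 members and peripheral node the highest for 26. The median member difference was -1.09 for thymus against peripheral node, -0.77 against mesenteric node and -0.87 against spleen, and its sign held with no normalization and with a common median. The contrasts share arrays and are not independent of each other.

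**Figure D4:**
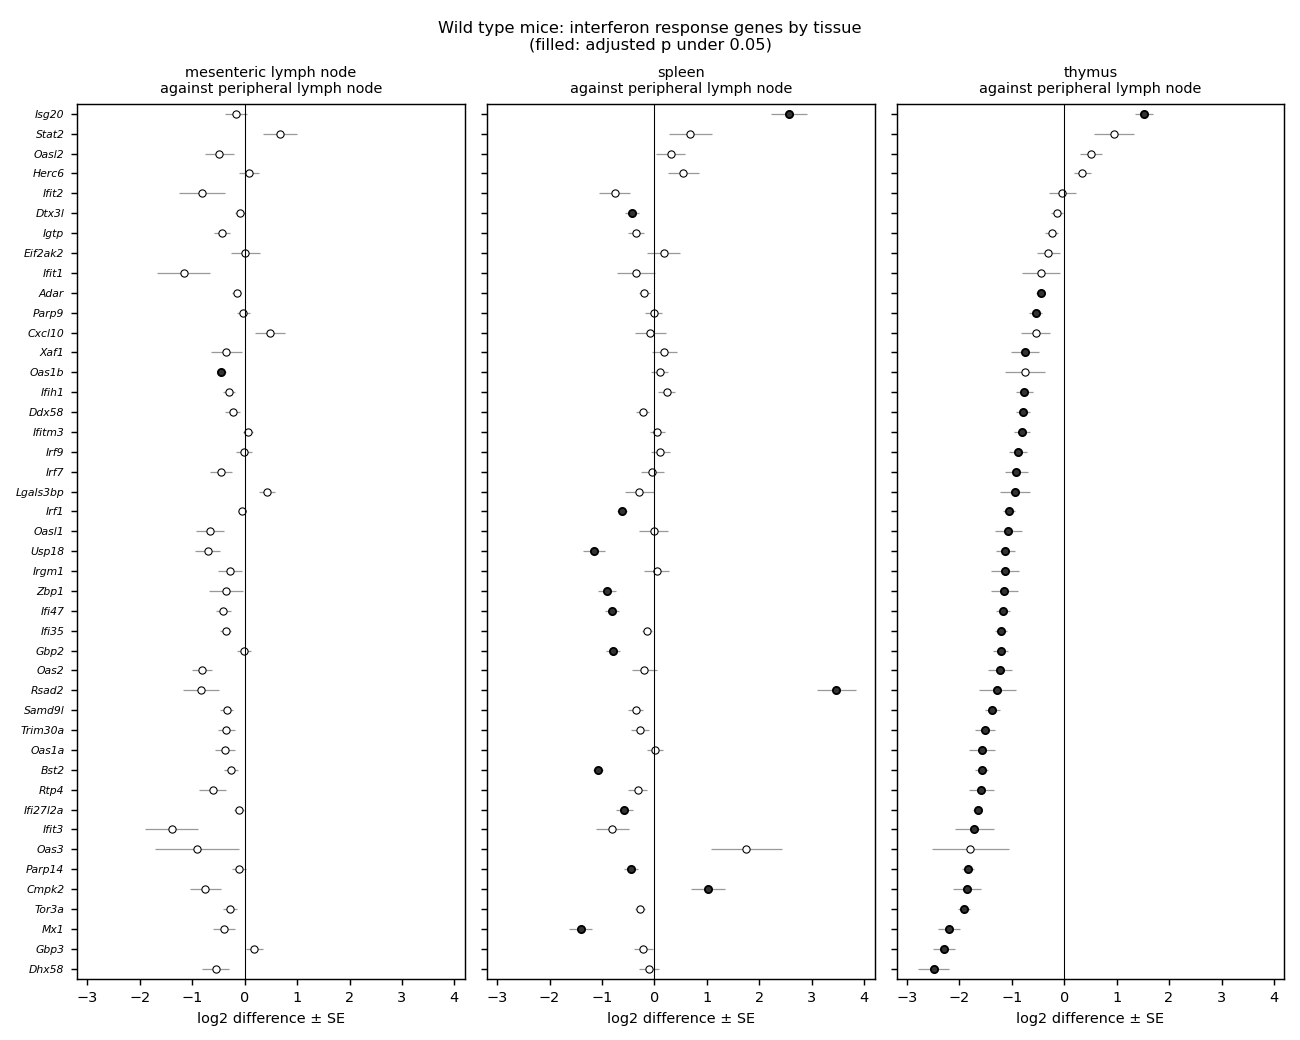
Wild type log2 difference (with SE) of 44 members in mesenteric lymph node, spleen and thymus, each against peripheral lymph node of the same 4 mice, ordered by the thymus difference; filled points have a limma adjusted p under 0.05. In thymus 32 filled points lie left of 0 and Isg20 right of it; in spleen Rsad2, Isg20 and Cmpk2 stand out on the right.

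Of the sensors, Dhx58 measured 7.98, 8.05, 7.46 and 6.84 in the nodes and 5.35, 4.92, 5.11 and 4.997 in the thymus of wild type mice 1 to 4, a difference of -2.49 (SE 0.30, limma adjusted p 0.000121). The 2 tissues did not overlap. Its thymus signal was under the filter of the thymus fit, so the size depends on the offset: it was -3.22 with an offset of 1 and -1.56 with 64, and the mean of the probe sets of Dhx58 gave -1.64. Gbp3 differed by -2.30 (SE 0.21), 4.92-fold lower in thymus, with 9.36 to 10.20 in nodes and 7.27 to 7.98 in thymus. Mx1, a dynamin-like GTPase that is defective in most laboratory strains, had a difference of -2.19 (SE 0.21). Every transcription factor of the group except Stat2 was lower in thymus than in peripheral node, with differences of -1.05 for Irf1, -0.92 for Irf7, the amplifier of interferon production, and -0.88 for Irf9. All 4 sensors, all 4 membrane and entry effectors and 4 of 5 interferon gamma-induced GTPases, all but Igtp, were lower there.

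Isg20 was the member higher in thymus than in peripheral node, with 9.57, 9.66, 9.55 and 9.58 against 8.65, 8.20, 7.76 and 7.66 (1.53, SE 0.17, limma adjusted p 6.82e-05). It was also higher in thymus than in mesenteric node (1.69, SE 0.13). Oasl2, an OAS-like protein, was higher in thymus than in mesenteric node by 0.99 (SE 0.11), Ifit2 by 0.78 (SE 0.20) and Ifit1 by 0.72 (SE 0.19). In thymus against spleen, Ifit2 was the member that was higher, by 0.72 (SE 0.17), a call that was lost with no normalization (0.44, limma adjusted p 0.13).

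Rsad2 in wild type mice 1 to 4 was at 11.63, 12.48, 12.18 and 12.59 in spleen, at 9.73, 8.78, 8.49 and 8.002 in peripheral node, at 7.59, 8.27, 7.88 and 7.93 in mesenteric node and at 7.11, 7.45, 7.66 and 7.68 in thymus. Every spleen value lay above every value of the other 3 tissues. The wild type differences were 3.47 (SE 0.38) against peripheral node, a fold of 11.1, and 4.30 (SE 0.27) against mesenteric node, a fold of 19.8, and thymus against spleen differed by -4.75 (SE 0.14). The transgenic mice gave 3.55, 3.49 and -3.80 for the same contrasts.

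Isg20 was higher in spleen than in peripheral node by 2.57 (SE 0.34, fold 5.93) and than in mesenteric node by 2.74 (SE 0.22, fold 6.66) in wild type mice. Oas3 exceeded mesenteric node by 2.66 (SE 0.44) in spleen, but its mesenteric signal was low, at or below 0 before the offset on 1 wild type array. The difference was 3.83 with an offset of 1, 1.85 with 64 and 2.11 to 3.08 with 1 mouse left out. Against peripheral node its difference of 1.75 (SE 0.67) had a limma adjusted p of 0.074, with wild type nodes at 8.05, 7.78, 5.74 and 4.91. Cmpk2 was higher in spleen by 1.77 (SE 0.22) against mesenteric node and by 1.02 (SE 0.32, limma adjusted p 0.038) against peripheral node. The second of these calls was marginal: leaving out wild type mouse 2, 3 or 4 gave adjusted p values of 0.076, 0.11 and 0.12, and leaving out transgenic mouse 1, 2 or 4, which share the spread, gave 0.052, 0.051 and 0.053. Without wild type mouse 4 the difference itself was 0.60.

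**Figure D5:**
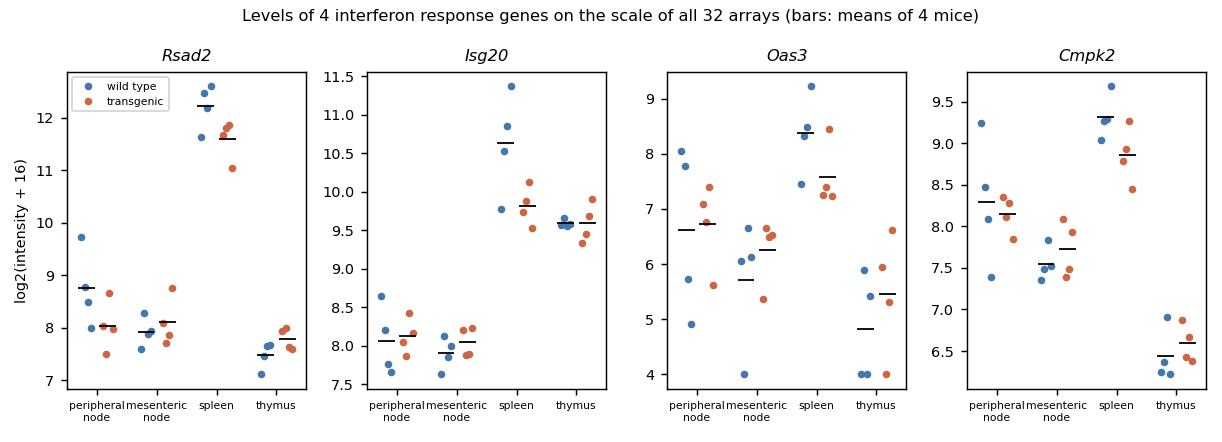
Levels of Rsad2, Isg20, Oas3 and Cmpk2, as log2(intensity + 16) on the scale of all 32 arrays, in each mouse by tissue and genotype (bars are means of 4 mice); panels have their own scales and heights are not comparable between genes. Rsad2 in spleen lies between 11.05 and 12.59 and in the other 3 tissues between 7.11 and 9.73.

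Other members were lower in spleen. Against peripheral node, Mx1 had a difference of -1.41 (SE 0.22), Usp18 of -1.16 (SE 0.21) and Bst2, a membrane protein that tethers budding virus, of -1.08 (SE 0.10). In all, 3 of 44 members were higher and 10 lower in spleen than in peripheral node (14.8% and 18.9% of all probe sets), so the share of members called was not above that of all probe sets. With a common median the count was 2 and 14. The 3 higher were all nucleotide and RNA effectors (Rsad2, Isg20 and Cmpk2). No OAS gene passed the test in that contrast.

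Against mesenteric node 10 members were higher and 9 lower in spleen (13.7% and 15.4% of all probe sets). However, without normalization 17 were higher and 0 lower, when the median of all probe sets was 0.33. Without wild type mouse 4 the count was 10 in all. With all mice and quantile normalization, 5 of 6 OAS genes were higher, all but Oasl1, and 3 of 5 interferon gamma-induced GTPases were lower. Gbp2 differed by -0.78 (SE 0.11), Bst2 by -0.81 (SE 0.14) and Mx1 by -1.02 (SE 0.18), each call lost without normalization. Irf1 differed by -0.57 (SE 0.11).

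Of 44 members 1 was called lower in mesenteric than in peripheral node and 0 higher (0.94% and 1.41% of all probe sets), a share near that of all probe sets. The means of 37 of the 44 were lower in mesenteric node, with a median difference of -0.35 against -0.02 for all probe sets. Without normalization 41 were lower, with a median of -0.61 against -0.22, and with a common median 40, with -0.50 against -0.12. The call was Oas1b, an OAS gene whose product is truncated in most laboratory strains, with 7.25, 7.40, 6.61 and 7.50 in mesenteric and 7.78, 7.76, 6.88 and 8.12 in peripheral nodes (-0.44, SE 0.09, limma adjusted p 0.037). It was lost when wild type mouse 1, 2, 3 or 4 or transgenic mouse 2, 3 or 4 was left out, with adjusted p values between 0.056 and 0.15. Ifit3 had the largest difference, -1.40 (SE 0.50, limma adjusted p 0.19), and was lower in mesenteric node in 3 of 4 mice.

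Mx2, the relative of Mx1, was at or below 0 before the offset in all 8 arrays of mesenteric node, spleen and thymus and in 4 of 8 peripheral nodes, and passed the filter in no tissue. In the other peripheral nodes it reached 6.63 and 5.35 in wild type mice 1 and 2 and 4.74 and 5.44 in transgenic mice 1 and 3. Mice 1 and 2 were also the wild type mice with the highest mean of the other members.

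The rest of the pathway, taken from lists of ligands, receptors, kinases, regulators and further induced genes, gave 0 genes called by limma between genotypes in each tissue. At an unadjusted p under 0.05, 3 were higher and 2 lower of 111 kept in peripheral node, 1 and 3 of 111 in mesenteric node, 5 and 4 of 110 in spleen and 13 and 3 of 103 in thymus. The shares of all probe sets, higher and lower, were 4.21% and 4.15%, 3.22% and 1.5%, 4.21% and 4.34%, and 3.98% and 3.29% in the same order. Interferon receptors kept 5 or 6 of 6 measured genes per tissue, with median differences between -0.14 and 0.06. Ifnar1 and Ifnar2, the interferon alpha and beta receptor chains, differed by -0.07 to 0.10 and by -0.12 to 0.10 over the 4 tissues. Interferon genes were mostly under the filter, with 4, 3, 3 and 2 of 10 measured genes kept in peripheral node, mesenteric node, spleen and thymus, and Ifng was kept in peripheral node alone (5.48 in wild type and 5.63 in transgenic means). Socs1, an inhibitor of interferon signalling, had transgenic spleen values apart from wild type at 0.60 (SE 0.16, limma adjusted p 0.53) and transgenic thymus values apart in the other direction at -0.40 (SE 0.16, adjusted p 0.66). Among 67 further interferon-induced genes measured, 59 were kept in thymus with a median of 0.13, 6 apart in the higher direction and 1 in the lower, against 2.54% and 2.06% of all probe sets. In spleen 62 were kept with a median of -0.02, 3 apart higher and 2 lower, against 2.79% and 2.09%.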

How the data were processed

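Total RNA from 4 tissues of 4 transgenic and 4 wild type mice, 5 µg per array per the labels' protocols, was measured on 32 Affymetrix arrays. The deposited values are linear intensity per probe set, 14.9% to 18.4% of them below 0 on each array; the algorithm and scaling behind them are not stated in any source used here. Trimmed mean intensity ran from 106 to 273, and the number of arrays limits the precision.

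Levels are log2(intensity + 16) with negative intensities taken as 0. Quantile normalization ran over the 8 arrays of each tissue, and the filter left the 27022 probe sets whose mean exceeded the 40th percentile. Control probe sets were left out. Genotypes were compared in each tissue with limma 3.58.1 in R 4.3.3 and Benjamini-Hochberg adjustment. Tissues were compared on all 32 arrays normalized together, from the differences within each mouse, with transgenic mice sharing the estimate of the spread; the difference of the transgenic effect used the same fit. The fit was tested on simulated data with known changes, in which each probe set was drawn on its own, unlike members that vary together. Between genotypes it recovered 8% to 20% of changes of 0.5 on the log2 scale over the 4 tissues. Of changes of 1 it recovered 54% to 66%. A member that was not called may therefore still differ. No label says whether samples differ beyond mouse, so p-values measure the spread between these mice.

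Probe sets were named from the platform's annotation table, in which 34945 had 1 symbol, 932 had several and 9160 had none.

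The members and lists were chosen with earlier results of these data known. Genes were named by rule: every call, the 3 largest differences in each direction among members with non-overlapping genotypes, the 3 smallest p for each difference of effect, the 3 largest tissue differences in each direction, and a fixed set of well known members. Other members given by value, among them Rtp4, Gbp3 and Oas1a in thymus, Isg20, Rsad2, Cmpk2, Oas3, Oasl1 and Oasl2 in spleen, Xaf1 and the IFIT genes, were chosen after their values were seen.

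Alternatives were another pseudocount, scaling and filter, 1 fit over all arrays, blocks, the mean of a gene's probe sets and leaving out arrays.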

Additional observations from a re-analysis of the deposited data

Results flagged for a closer look

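In 228 groups of 4 mice, 14 held 1 mouse far from the other 3 by Dixon's criterion (the gap to the nearest mouse over the range of the group), where chance gives about 1 in 20 groups. All values are log2(intensity + 16).

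In peripheral lymph node Gbp3 was low in mouse 4 of both genotypes, at 9.51 in wild type and 9.80 in transgenic mice, while the nearest other mice were at 10.22 and 10.27. Irf1 was highest in transgenic mouse 3, at 11.44, and Ifi27l2a lowest in transgenic mouse 2, at 11.33. In mesenteric lymph node Gbp2 was highest in wild type mouse 4, at 9.99. Stat2 and Oas3 were both lowest in transgenic mouse 1, at 5.82 and 5.22, the array with the highest Actb 3′ to 5′ ratio of that tissue, 3.10.

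In spleen Tor3a was lowest in wild type mouse 4, at 8.15, and Rtp4 highest in wild type mouse 3, at 10.12. Transgenic mouse 3 had the highest Usp18, at 8.44, and the highest Oas3, at 8.52, of its genotype, and transgenic mouse 2 the lowest Mx1, at 6.34. In thymus Oas1b was lowest in wild type mouse 2, at 5.90, and Rtp4 lowest in transgenic mouse 2, at 8.58, while the other 3 transgenic mice were at 9.24 to 9.29.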

How the results depend on the processing

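No member was called between genotypes in any tissue under the alternatives run, except Parp14 in thymus in the single fit over 32 arrays with mouse as random block (1 call, 0.53, limma adjusted p 0.042); the cause was not tested. With 1 mouse left out the median member difference was 0.15 to 0.25 in thymus, -0.26 to -0.10 in spleen, -0.29 to -0.07 in peripheral node and -0.08 to 0.0002 in mesenteric node. Without normalization the spleen median was -0.40, where the median of all probe sets was -0.17, and the peripheral member median turned to 0.027.

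With mouse number as a replicate block 0 members were called in each tissue and the medians were -0.15, -0.04, -0.20 and 0.19; same-numbered mice deviated with correlations from -0.44 to 0.33, so the numbers are not taken as pairs.

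The mesenteric against peripheral call, 1 member, became 0 with no normalization, a common median or wild type mice alone, 2 with the filter at the 60th percentile, and 0 to 2 with 1 mouse left out. Spleen against mesenteric node, 19 calls, ranged from 10 to 20 with 1 mouse left out, and thymus against mesenteric node, 33 calls, was 21 without normalization.

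Many signs depended on the scaling, all of uncalled values, and the cause was not tested. Without normalization the members with a positive difference went from 9 to 23 of 44 in peripheral node, from 19 to 37 in mesenteric node and from 11 to 1 in spleen. With a common median they went from 19 to 37 in mesenteric node and from 11 to 8 in spleen. The spleen members above the median of all probe sets were 11 after quantile normalization and 9 under each of these 2 scalings. Among the members followed through every alternative, those that turned without normalization were, in peripheral node, Irf9 0.10, Irf1 0.074, Oas1b 0.038, Igtp 0.022 and Cxcl10 0.13, in mesenteric node, Irf1 0.085, Mx1 0.0020, Gbp2 0.042, Igtp 0.088, Bst2 0.067 and Ifitm3 0.13, and in spleen, Gbp2 -0.12, Cxcl10 -0.024 and Bst2 -0.0049. Among the same members a common median turned, in mesenteric node, Irf1 0.089, Mx1 0.0053, Gbp2 0.045, Igtp 0.092, Bst2 0.071 and Ifitm3 0.13. Without the 3 arrays richest in muscle transcripts the peripheral values were Stat2 -0.070, Igtp 0.11, Cxcl10 0.48 and Ifitm3 -0.020. Without the 3 richest in pancreas transcripts the mesenteric values were Stat2 0.030 and Igtp 0.035. Without transgenic mice 1 and 2 the thymic values were Stat2 0.20, Igtp -0.031 and Cxcl10 -0.052.

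With 1 mouse left out, peripheral node values ranged from -0.026 to 0.15 for Gbp2, -0.14 to 0.0083 for Irf9, -0.44 to 0.0071 for Oas1b, -0.36 to 0.32 for Cxcl10 and -0.022 to 0.12 for Ifitm3, and mesenteric values from -0.19 to 0.030 for Mx1, -0.035 to 0.0074 for Ifitm3, -0.11 to 0.082 for Usp18 and -0.012 to 0.32 for Oas1b. In spleen the range was -0.38 to 0.046 for Stat2. Thymic values ranged from -0.15 to 0.41 for Oas1b, -0.018 to 0.053 for Igtp, -0.038 to 0.22 for Irf7, -0.050 to 0.20 for Irf9 and -0.033 to 0.14 for Ifitm3.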
